A study of Mus musculus with 16 samples.

Results

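Fasn, Scd1, Thrsp and Insig2 were followed here as genes of lipid synthesis and of its restraint in 2 limb muscles of SOD1-G93A mice and their non-transgenic controls. The table names 4929 genes, and its platform annotation gave 8 of the 7729 probe sets to these 4, which are 1 of Fasn, 2 each of Scd1 and Thrsp and 3 of Insig2. All 8 are described. The genes had been picked because, in earlier results from the same arrays, Fasn and Scd1 tended higher and Insig2 lower in SOD1-G93A muscle. Their genotype differences are therefore given as measured, with no test. Only the difference between the muscles, the difference between replicate numbers and the spread between mice were tested.

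New fatty acids are built from acetyl-CoA, which ATP citrate lyase (Acly) makes in the cytosol and which acetyl-CoA carboxylase turns into malonyl-CoA. Fatty acid synthase, the product of Fasn, assembles saturated chains from these units, and stearoyl-CoA desaturase 1, the product of Scd1, adds a double bond. Thrsp encodes a small protein of lipogenic tissues, also called Spot 14, that responds to thyroid hormone and to feeding. Many of these genes are targets of the transcription factor SREBP-1c, from Srebf1, which must leave the endoplasmic reticulum to be cut and become active. The INSIG proteins, of which Insig2 encodes one, hold the SREBP precursor back together with its escort SCAP. Skeletal muscle makes less fatty acid than liver or fat, so fat cells between the fibres can add to these transcripts in a whole-muscle sample.

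The samples came from female C57BL/6 mice aged 7 weeks, which the series calls presymptomatic. Mice labelled SOD1G93A carried a human SOD1 transgene with the G93A substitution, a model of amyotrophic lateral sclerosis. Mice labelled NTg carried no transgene, and no other treatment is given for either genotype. Gastrocnemius of the calf and triceps of the foreleg were taken from 4 mice per genotype, for 16 arrays in all, 4 for each genotype and muscle. The labels do not state the transgene's promoter or founder line. A replicate number is read here as a mouse that gave both muscles.

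The regulatory sequence before the gene start is shown for the members found in the RefSeq promoter table (assembly GRCm38.p6), since 3 of the members varied together between mice in the comparison of replicate numbers. Of the 4 genes, 3 were in that table, and Scd1 was not. Each line gives the 250 bases before the annotated start, read 5′ to 3′ along the gene, all on the minus strand of the chromosome. Capitals mark CCAAT or its reverse complement ATTGG, the box bound by the factor NF-Y. The windows lie at chr11:120824548-120824797 for Fasn, at chr7:97417551-97417800 for Thrsp and at chr1:121332590-121332839 for the most upstream of the 3 Insig2 starts.
Fasn: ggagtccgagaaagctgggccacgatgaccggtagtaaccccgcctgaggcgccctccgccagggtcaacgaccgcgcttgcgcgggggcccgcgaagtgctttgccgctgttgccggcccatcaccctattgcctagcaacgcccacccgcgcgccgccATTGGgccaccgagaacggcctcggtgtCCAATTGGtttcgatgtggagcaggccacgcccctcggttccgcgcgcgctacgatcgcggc
Thrsp: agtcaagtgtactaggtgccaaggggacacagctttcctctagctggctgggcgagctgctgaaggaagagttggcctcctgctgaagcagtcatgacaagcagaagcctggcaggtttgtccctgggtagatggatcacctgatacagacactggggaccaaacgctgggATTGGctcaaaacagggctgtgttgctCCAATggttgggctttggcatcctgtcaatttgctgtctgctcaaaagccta
Insig2: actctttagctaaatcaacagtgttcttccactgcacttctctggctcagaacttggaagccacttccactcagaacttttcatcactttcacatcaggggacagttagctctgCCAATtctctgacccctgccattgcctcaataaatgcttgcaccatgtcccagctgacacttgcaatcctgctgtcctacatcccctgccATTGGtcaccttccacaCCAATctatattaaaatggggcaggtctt

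The Fasn window held 3 CCAAT boxes, which began 90, 62 and 59 bases before the start, and the last 2 of them overlap. The Thrsp window held 2, which began 79 and 52 bases before the start. The Insig2 window printed held 3, at 136, 46 and 29 bases, while the windows of the other 2 Insig2 starts held 0. CCAAT was found on either strand in 33.8% of the 32851 promoter windows of this length. The sterol regulatory element TCACNCCAC, which 1.05% of windows held, and the E-box CACGTG, which 6.02% held, were in none of the 5 windows of these genes. The GC box GGGCGG was in both downstream Insig2 windows and in none of the windows printed, against 32.7% of all windows. GC made up 69.2% of the Fasn window, 53.6% of the Thrsp window and 47.2% of the Insig2 window.

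Signals are log2 values as deposited, and array medians lay between 7.10 and 7.26. A probe set was tested where its mean over the 16 arrays was above the 40th percentile, log2 6.75. That left 4637 probe sets, among them 7 of the 8 described here. The second Scd1 probe set had a mean of 5.30 and was not tested. In 3 of the 8 triceps arrays (NTg replicates 1 and 2 and SOD1-G93A replicate 2), Ckm, the muscle creatine kinase that marks fibres, was at 12.76 to 13.02, against 13.84 to 14.51 in the other 5 triceps arrays. All 3 belong to replicates 1 and 2, and the main triceps, muscle and replicate-set values are given also without them. All 15 fibre markers were in the table and tested. Sod1 was at 11.32 ± 0.30 (SD, n = 4) in SOD1-G93A and 11.15 ± 0.15 in NTg gastrocnemius. Its annotation is to mouse Sod1, so it does not check the transgene.

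Fasn was brighter in SOD1-G93A than in NTg muscle on average, and the groups overlapped in both muscles. In gastrocnemius its signal was 8.36, 7.69, 7.48 and 6.58 in SOD1-G93A replicates 1 to 4 and 5.19, 6.91, 5.80 and 5.35 in NTg replicates 1 to 4. The first 3 SOD1-G93A arrays lay above every NTg array, and the fourth lay below NTg replicate 2. In triceps it was 8.76, 8.33, 7.43 and 7.70 in SOD1-G93A and 7.36, 7.78, 6.71 and 6.83 in NTg. SOD1-G93A replicates 1 and 2 were above all NTg arrays there, and replicates 3 and 4 lay between the NTg values. The group means were 7.53 ± 0.73 (SD, n = 4) against 5.81 ± 0.78 in gastrocnemius and 8.05 ± 0.60 against 7.17 ± 0.49 in triceps. The genotype difference was 1.72 (SE 0.41) in gastrocnemius, 3.29-fold, and 0.88 (SE 0.41) in triceps, 1.84-fold. NTg gastrocnemius was the lowest of the 4 groups. Its mean lay below the filter level of log2 6.75, so the gastrocnemius difference rests in part on dim values.

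The brighter Scd1 probe set, 1415964_at, followed the same order of genotypes. In gastrocnemius it gave 10.83, 10.69, 9.30 and 9.58 in SOD1-G93A and 9.31, 9.88, 9.22 and 8.01 in NTg. SOD1-G93A replicates 1 and 2 were high, and replicates 3 and 4 lay among the NTg arrays. In triceps it gave 10.85, 10.83, 9.45 and 9.97 in SOD1-G93A and 9.40, 9.51, 9.30 and 9.41 in NTg. Again replicates 1 and 2 of SOD1-G93A stood highest, and the NTg arrays were close together, with an SD of 0.09. The difference was 0.99 (SE 0.39) in gastrocnemius and 0.87 (SE 0.39) in triceps. The dim probe set 1415965_at differed by 0.69 (SE 0.37) and 0.75 (SE 0.37), and 3 of 4 SOD1-G93A arrays lay above the highest NTg array in each muscle.

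Thrsp, at probe set 1424737_at, was 8.81, 8.46, 6.83 and 7.68 in SOD1-G93A gastrocnemius and 7.59, 7.59, 7.09 and 7.01 in NTg gastrocnemius. Replicate 3 of SOD1-G93A was the lowest of these 8 arrays, and the other 3 SOD1-G93A arrays were the highest. In triceps it was 9.02, 8.73, 7.87 and 8.28 in SOD1-G93A and 8.07, 8.09, 7.92 and 7.87 in NTg. The same SOD1-G93A replicate was lowest there too, level with NTg replicate 4. The difference was 0.63 (SE 0.33) in gastrocnemius and 0.49 (SE 0.33) in triceps. The other Thrsp probe set, 1422973_a_at, whose suffix marks probes shared by alternative transcripts, differed by 0.39 (SE 0.27) and 0.31 (SE 0.27), with overlapping groups in both muscles.

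**Figure D1:**
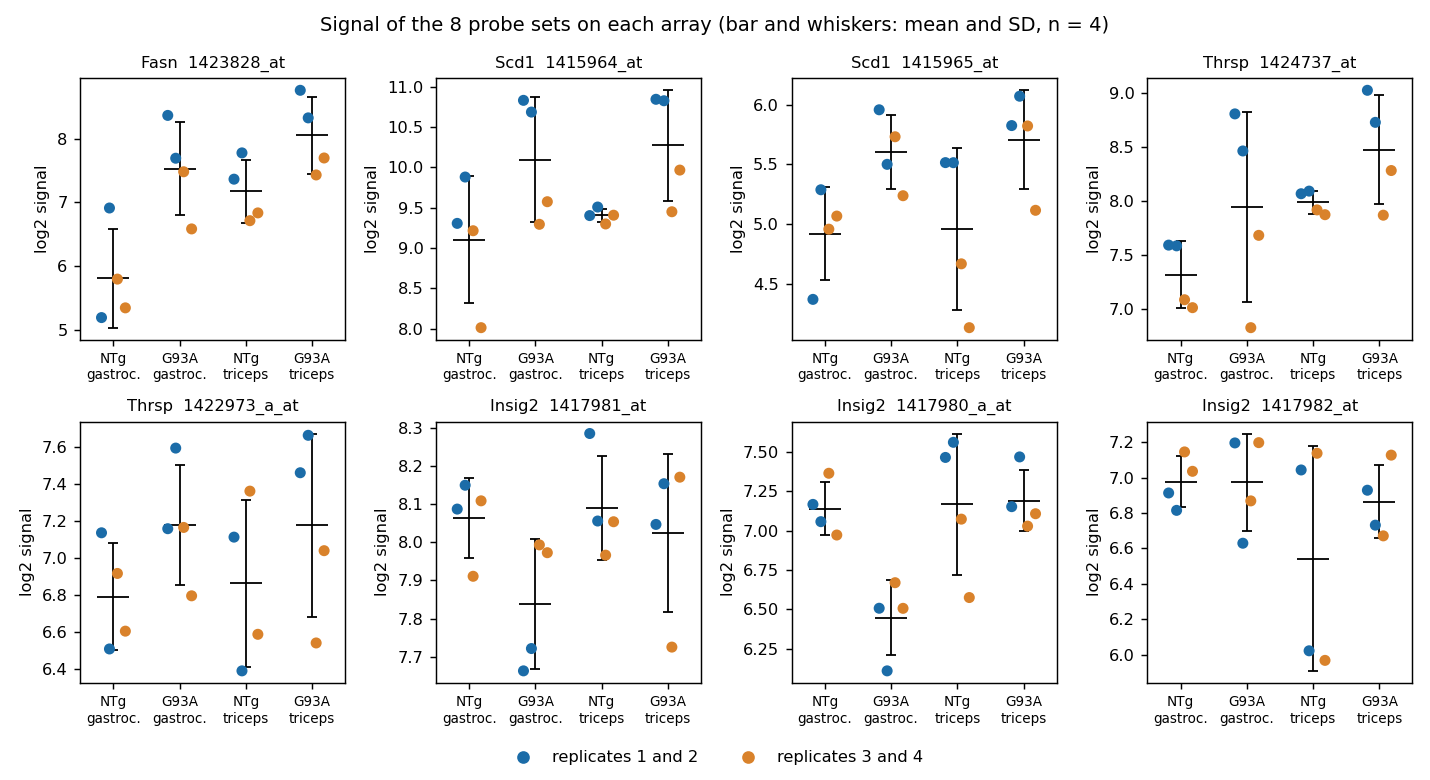
Log2 signal of each of the 8 probe sets on each of the 16 arrays, by genotype and muscle, with points coloured by replicate numbers 1 and 2 or 3 and 4, and bars and whiskers for the mean and SD (n = 4). In SOD1-G93A muscle the arrays of replicates 1 and 2 lie at the top for Scd1 (10.69 to 10.85 at 1415964_at) and replicates 3 and 4 lie lower (9.30 to 9.97).

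Insig2 was read by 3 probe sets, which did not agree on the genotypes. The brightest, 1417981_at, gave 7.66, 7.72, 7.99 and 7.97 in SOD1-G93A gastrocnemius and 8.09, 8.15, 7.91 and 8.11 in NTg gastrocnemius. In triceps it gave 8.05, 8.15, 7.73 and 8.17 in SOD1-G93A and 8.28, 8.06, 7.97 and 8.05 in NTg. The groups overlapped in both muscles, and the differences were -0.23 (SE 0.14) and -0.07 (SE 0.14).

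Probe set 1417980_a_at gave 6.51, 6.11, 6.67 and 6.51 in SOD1-G93A gastrocnemius and 7.17, 7.06, 7.36 and 6.97 in NTg gastrocnemius. Here all 4 SOD1-G93A arrays lay below all 4 NTg arrays, as they did for 1.32% of the probe sets tested in that direction. In triceps it gave 7.15, 7.47, 7.03 and 7.11 in SOD1-G93A and 7.46, 7.56, 7.07 and 6.58 in NTg, and the groups overlapped. The difference was -0.69 (SE 0.21) in gastrocnemius and 0.02 (SE 0.21) in triceps, which differ by -0.71 (SE 0.30). SOD1-G93A gastrocnemius was thus the lowest of the 4 groups, at 6.45 ± 0.24 (SD, n = 4) against 7.14 to 7.19 in the other 3.

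The third Insig2 probe set, 1417982_at, gave 7.20, 6.63, 6.87 and 7.20 in SOD1-G93A gastrocnemius and 6.91, 6.82, 7.15 and 7.04 in NTg gastrocnemius, a difference of -0.00 (SE 0.25). In triceps it gave 6.93, 6.73, 6.67 and 7.13 in SOD1-G93A and 7.04, 6.02, 7.14 and 5.97 in NTg, a difference of 0.32 (SE 0.25). The lower Insig2 signal in SOD1-G93A was thus seen at 2 of 3 probe sets in gastrocnemius and was not shared by the third.

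**Figure D2:**
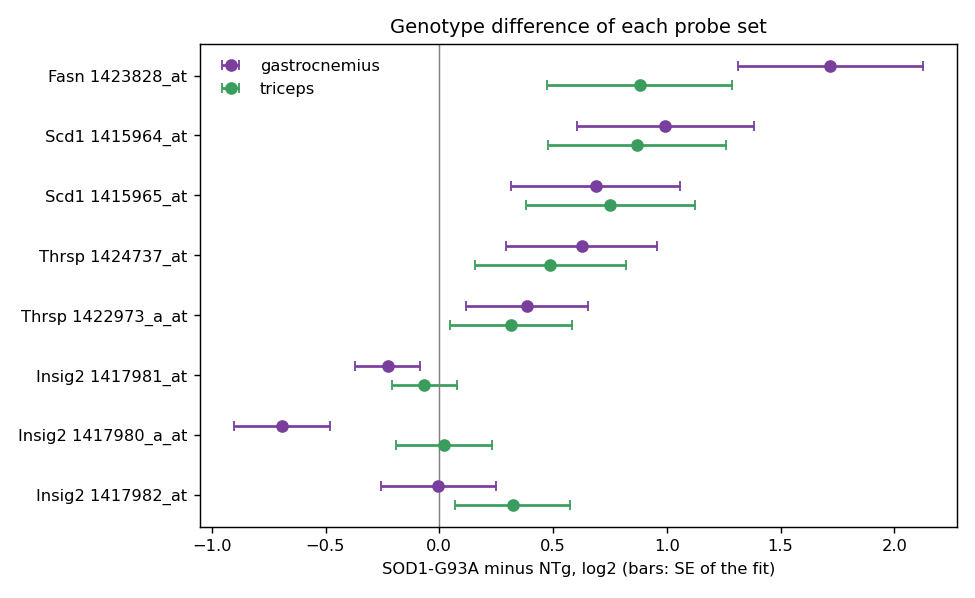
Genotype difference, SOD1-G93A minus NTg, on the log2 scale for each probe set in gastrocnemius and in triceps (points: difference, bars: SE of the fit). Fasn is farthest to the right, at 1.72 in gastrocnemius, and Insig2 1417980_a_at farthest to the left, at -0.69 in gastrocnemius and 0.02 in triceps.

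Over both muscles of a mouse, with the mouse as a random block, the differences were 1.30 (SE 0.30) for Fasn, 0.93 (SE 0.29) and 0.72 (SE 0.29) for Scd1, and 0.56 (SE 0.24) and 0.35 (SE 0.20) for Thrsp. For Insig2 they were -0.15 (SE 0.11), -0.34 (SE 0.17) and 0.16 (SE 0.19). With 1 array left out, the gastrocnemius difference ran from 1.44 to 2.08 for Fasn, from 0.63 (without NTg replicate 4) to 1.26 for Scd1 1415964_at and from 0.34 (without SOD1-G93A replicate 1) to 0.997 (without SOD1-G93A replicate 3) for Thrsp 1424737_at. For Insig2 it ran from -0.28 to -0.17 at 1417981_at, from -0.76 to -0.58 at 1417980_a_at and from -0.08 to 0.11 at 1417982_at. These ranges show how far single arrays set the size of the difference. Nothing is read from its sign, since the genes were chosen on this contrast. Mean signal per mouse ran from 7.14 to 8.56 for Fasn in SOD1-G93A mice and from 6.09 to 7.34 in NTg mice. The ranges overlapped because SOD1-G93A mouse 4, at 7.14, lay below NTg mouse 2, at 7.34. Even averaged over the muscles, Fasn alone thus did not place every mouse by genotype. As background, limma at a Benjamini-Hochberg adjusted p under 0.05 called 0% of all 4637 probe sets in each genotype comparison, those described here included, and unadjusted p-values under 0.05 numbered 103 in gastrocnemius, 118 in triceps and 85 over both muscles. Nothing is read from that share for the genes described, which were chosen on this contrast. Without the 3 triceps arrays low in Ckm, the triceps difference was 1.19 (SE 0.51) for Fasn and 0.73 (SE 0.50) for Scd1 1415964_at. It was 0.50 (SE 0.44) and 0.04 (SE 0.32) for Thrsp 1424737_at and 1422973_a_at, and 0.27 (SE 0.24) for Insig2 1417980_a_at. That leaves NTg triceps replicates 3 and 4 against SOD1-G93A triceps replicates 1, 3 and 4, so the genotypes then differ in replicate set too. Within replicates 3 and 4 alone, the triceps difference was 0.79 for Fasn, 0.36 for Scd1 1415964_at and 0.18 for Thrsp 1424737_at.

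Within replicate numbers 1 and 2, and within 3 and 4, the genotype difference of each gene was taken again. Averaged over both muscles, Fasn differed by 1.47 within numbers 1 and 2 and by 1.12 within 3 and 4. Scd1 1415964_at differed by 1.27 and by 0.59, and Thrsp 1424737_at by 0.92 and by 0.19. Thrsp was thus almost level between the genotypes among mice 3 and 4, while Fasn kept over 1 log2 unit in each set. The dim Scd1 probe set differed by 0.67 and by 0.77. Insig2 1417980_a_at differed by -0.80 and -0.58 in gastrocnemius and by -0.20 and 0.24 in triceps. At Insig2 1417981_at the gastrocnemius difference was -0.43 within numbers 1 and 2 and -0.03 within 3 and 4. Thrsp 1422973_a_at differed by 0.81 and by -0.18 in triceps, so its sign was not shared by the sets. Each of these values rests on 2 mice against 2, and the change between the sets was not tested.

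**Figure D3:**
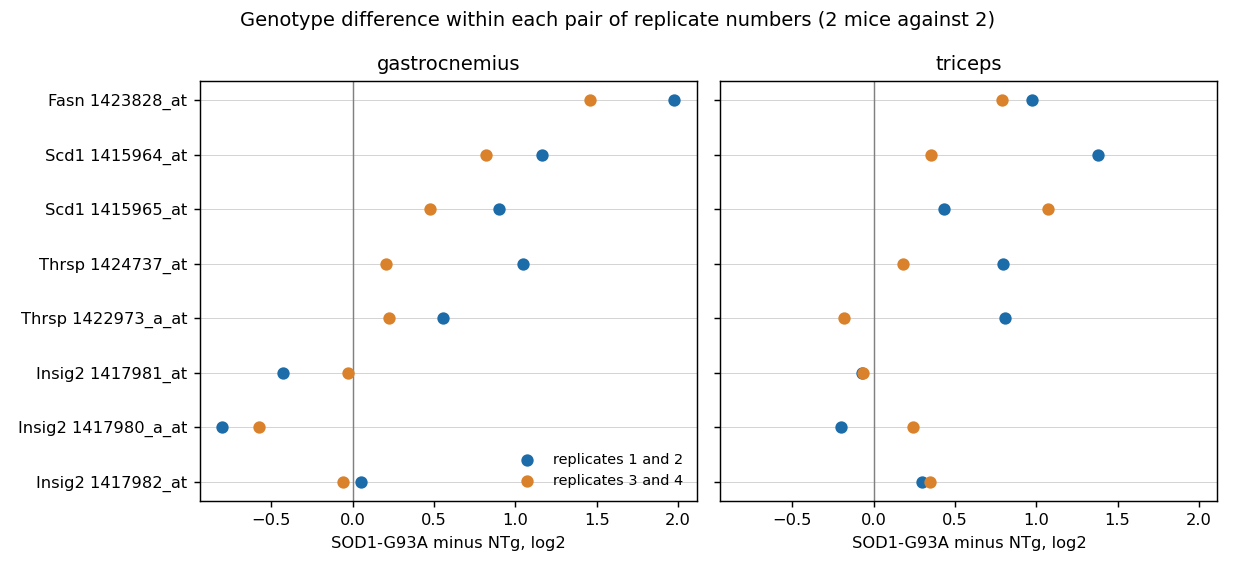
Genotype difference, SOD1-G93A minus NTg, on the log2 scale in each muscle, taken within replicate numbers 1 and 2 and within 3 and 4 (2 mice against 2 for each point, on a shared axis). For Thrsp 1424737_at in gastrocnemius the points are at 1.05 and 0.21, and for Fasn at 1.98 and 1.46.

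The replicate numbers themselves were next compared, numbers 3 and 4 against 1 and 2, a difference that the choice of genes had not used. What separates these sets is not given in the labels. Scd1, Thrsp and Fasn were all lower in mice 3 and 4, of both genotypes, whereas none of the Insig2 probe sets was called. Scd1 1415964_at fell by 0.88 (SE 0.18, adjusted p = 0.00586 with limma), Thrsp 1424737_at by 0.73 (SE 0.16, adjusted p = 0.0087) and Fasn by 0.81 (SE 0.21, adjusted p = 0.0232). Across all probe sets 4.55% were called lower and 9.86% in either direction, so 3 of 7 tested were called here against that background. Thrsp 1422973_a_at differed by -0.25 (adjusted p = 0.38). The Insig2 probe sets differed by -0.03, -0.15 and 0.11, with adjusted p-values of 0.858, 0.54 and 0.726.

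The fall was seen in each group for the 3 genes, and in NTg triceps it was small for Scd1 and Thrsp. For Scd1 1415964_at the difference was -1.33 in SOD1-G93A and -0.98 in NTg gastrocnemius, and -1.13 and -0.10 in triceps. For Thrsp 1424737_at it was -1.38 and -0.54 in gastrocnemius, and -0.80 and -0.18 in triceps. For Fasn it was -0.996 and -0.48 in gastrocnemius, and -0.98 and -0.80 in triceps.

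With the mouse as a random block, the limma adjusted p was 0.00681 for Scd1, 0.0098 for Thrsp and 0.0255 for Fasn, and 8.99% of all probe sets were called. That fit used 1 correlation for all probe sets, 0.027, and so counted the muscles of a mouse almost as separate samples. Within the sets, r between the muscles of a mouse was 0.97 for Thrsp, 0.50 for Fasn and 0.11 for Scd1. These p-values can therefore be too small, most of all for Thrsp, and the permutation given next takes the mouse as the unit. Over the 8 mouse means, exact permutation within genotype gave p = 0.0556 (two-sided, unadjusted) for each of the 3 genes, the smallest p that 2 mice against 2 in each genotype allow. Scd1 and Thrsp stayed called when any array or any mouse was left out. The Fasn call was less firm. With the random block it ended when any 1 of 5 of the 8 mice was left out, at adjusted p-values of 0.0942 (NTg mouse 2), 0.0514 (NTg mouse 3), 0.0702 (NTg mouse 4), 0.0903 (SOD1-G93A mouse 1) and 0.0798 (SOD1-G93A mouse 4). In the fit without that block it ended without SOD1-G93A gastrocnemius replicate 1 (adjusted p = 0.0519), NTg gastrocnemius replicate 2 (0.0509) or SOD1-G93A triceps replicate 3 (0.0513). With the 3 triceps arrays low in Ckm left out, Scd1 differed by -1.15 and Thrsp by -0.96, both called. Fasn then differed by -0.85 (adjusted p = 0.0941).

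Fibre transcripts moved the other way between the same sets. Of 18 probe sets of 15 fibre markers, 9 were higher in replicates 3 and 4 and 0 lower. Ckm was higher by 0.86 (adjusted p = 0.00356) and Acta1, the skeletal actin, also by 0.86 (adjusted p = 0.0037). Adipoq, of the fat cell hormone adiponectin, missed the threshold with all arrays (adjusted p = 0.0753). Of the 6 tested probe sets of adipocyte markers 2 were called, both of them higher and both of Car3, which fibres also express. The other 4 were all below 0, at -0.45 for Adipoq, -0.20 and -0.34 for Fabp4 and -0.20 for Plin4, with none called, and the list's median was -0.20. Without the 3 triceps arrays low in Ckm, again 9 fibre probe sets were called higher and 0 lower, and Ckm was higher by 0.48 (adjusted p = 0.000203). Adipoq was then called lower, at -0.66 (adjusted p = 0.0143). The part of fibre or fat cell content in the fall of Scd1, Thrsp and Fasn was not tested. In whole muscle, fewer cells of a type and less RNA per cell cannot be told apart.

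The muscles were compared next, since the choice of genes had not used that contrast. Each mouse gave both muscles, and in deviations from the group means the arrays of a mouse correlated at 0.14 to 0.39, and in 8 of 8 mice the best match of the gastrocnemius array was the other muscle of that mouse. Fasn and Thrsp were lower in gastrocnemius than in triceps of the same mouse. With the mouse as a block, Fasn differed by -0.94 (SE 0.17, 95% interval -1.32 to -0.57, adjusted p = 0.00758 with limma), a signal 1.92-fold higher in triceps. It was lower in gastrocnemius in 7 of 8 mice, and the exception, SOD1-G93A mouse 3, had 7.48 against 7.43. Exact sign-flip permutation over the 8 mice gave p = 0.0156 (two-sided, unadjusted). The Fasn mean in NTg gastrocnemius, 5.81, lay below the filter level of log2 6.75, so part of this difference rests on dim values.

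Thrsp 1424737_at differed by -0.60 (95% interval -0.85 to -0.34, adjusted p = 0.0115 with the mouse as a block) and was 1.51-fold higher in triceps. It was lower in gastrocnemius in 8 of 8 mice, by 0.22 to 1.04, and the exact sign-flip permutation gave p = 0.00781, the smallest possible. A fall of the same sign in all 8 mice was found for 4.4% of probe sets. The other Thrsp probe set, 1422973_a_at, differed by -0.03 (95% interval -0.34 to 0.27) and so did not share this difference.

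Among all probe sets, 3.23% were called lower in gastrocnemius with the mouse as a block and 6.86% in either direction. Without that block, where the fit takes the muscles as separate samples, neither gene was called with all arrays. The adjusted p was then 0.0806 for Fasn and 0.151 for Thrsp, with 1.57% of probe sets called lower. In that fit Fasn was called when NTg gastrocnemius replicate 2 was left out, at -1.12 (adjusted p = 0.0302). With the block, both calls held when each mouse was left out in turn, at adjusted p-values of 0.00531 to 0.0282 for Fasn and 0.0129 to 0.0331 for Thrsp. They held also without the 3 triceps arrays low in Ckm, at 0.0376 and 0.0121.

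Scd1 1415964_at differed by -0.24 between the muscles (95% interval -0.56 to 0.09, adjusted p = 0.322 with the mouse as a block), although 7 of 8 mice had the lower value in gastrocnemius. The mouse at that extreme was NTg mouse 4, with 8.01 against 9.41. Insig2 1417981_at differed by -0.11 (95% interval -0.34 to 0.13), 1417980_a_at by -0.38 (-0.72 to -0.05) and 1417982_at by 0.27 (-0.07 to 0.61), with adjusted p-values of 0.553, 0.131 and 0.275. In the fit without the block, 1417980_a_at was called within replicates 1 and 2 (-0.70, adjusted p = 0.0478) and without NTg triceps replicate 4 (-0.48, adjusted p = 0.0459). Without the 3 triceps arrays low in Ckm it differed by -0.17 in that fit and by -0.10 with the mouse as a block, with no call. The difference at 1417980_a_at was -0.74 in SOD1-G93A and -0.03 in NTg mice. For Fasn the order of genotypes was opposite, with -1.36 in NTg and -0.52 in SOD1-G93A mice.

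**Figure D4:**
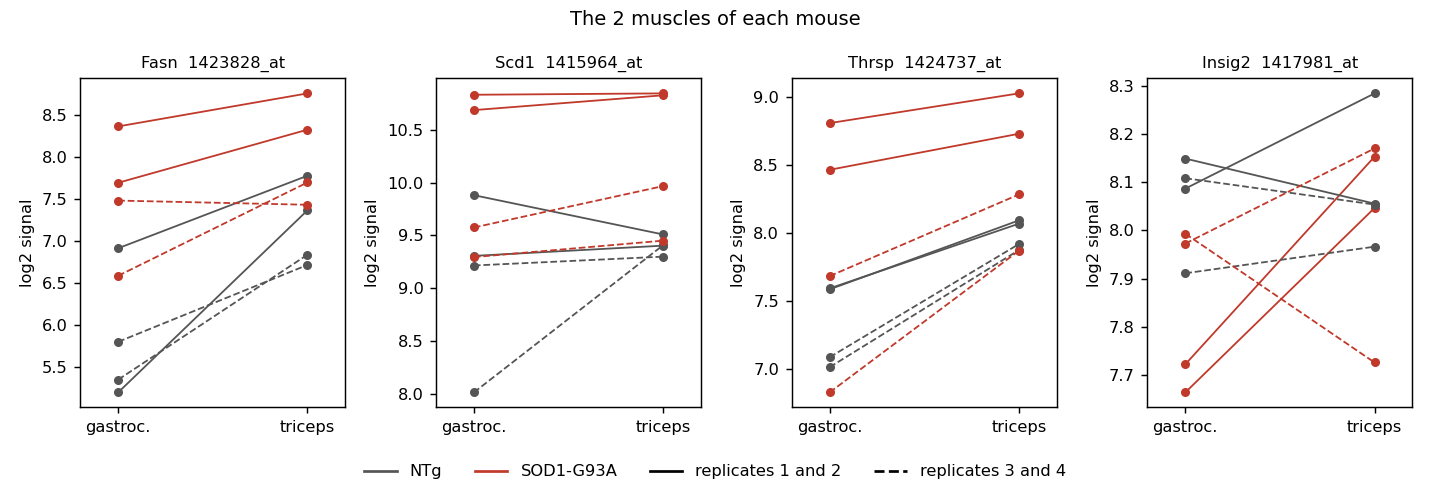
Log2 signal in gastrocnemius and triceps, with a line for each of the 8 mice, coloured by genotype and styled by replicate numbers. Lines rise towards triceps in 7 of 8 mice for Fasn and in 8 of 8 for Thrsp 1424737_at.

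Markers of other cells between the muscles give the setting for these values. Of the 6 tested probe sets of adipocyte markers, 0 differed between the muscles in the fit without the block, and Adipoq was 0.10 higher in gastrocnemius (adjusted p = 0.773). Of the 18 fibre marker probe sets 8 were called higher in gastrocnemius and 0 lower. The called ones were of Tnnt1, Myl2, Myh7, Tnni1, Tpm3, Myh2 and Mb. Ckm, at 0.60 (limma adjusted p = 0.194), and Acta1, at 0.61 (limma adjusted p = 0.193), were not called. Without the triceps arrays low in Ckm, Ckm differed by 0.07. The calls are thus of particular fibre genes and do not show more fibre content in gastrocnemius. All 4 Schwann cell probe sets were called higher in gastrocnemius too, with a median of 2.01, and 2 of 7 of fibroblasts. The part of these cells in the differences of Fasn and Thrsp was not tested.

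The spread between mice of a genotype was then compared across genes, taking each mouse's mean over both muscles as a deviation from its genotype's mean. Scd1 and Thrsp rose and fell together over the 8 mice, with r = 0.93 (exact permutation within genotype, p = 0.00174, the smallest possible, adjusted p = 0.0174 over 10 relations) and rho = 0.98 (exact permutation, adjusted p = 0.0347). Without the 2 mice farthest from the median of Scd1, r was 0.92. Fasn and Scd1 gave r = 0.82 and rho = 0.83 (exact permutation, adjusted p = 0.135 and 0.0911). Fasn and Thrsp gave r = 0.71 and rho = 0.86 (exact permutation, adjusted p = 0.153 and 0.0694). Neither relation of Fasn passed the threshold.

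For Insig2 1417981_at no relation with the 3 genes passed the threshold. Its r was -0.26 with Fasn, -0.07 with Scd1 and 0.07 with Thrsp (exact permutation, adjusted p from 0.823 to 0.917). The muscles of a mouse gave like values for Thrsp, with r = 0.99 between gastrocnemius and triceps (exact permutation, adjusted p = 0.0174) and rho = 0.95 (exact permutation, adjusted p = 0.0694). Without the 2 farthest mice r was 0.96. Between the muscles r was 0.72 for Scd1 and 0.69 for Fasn (exact permutation, adjusted p = 0.135 and 0.162). For Insig2 it was -0.18 (exact permutation, adjusted p = 0.917).

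The replicate sets bear on these relations, since Scd1, Thrsp and Fasn were all lower in replicates 3 and 4. With the set mean removed as well, 4 pairs of mice remain, and exact permutation can give no p under 0.0625. Scd1 and Thrsp then gave r = 0.58 (exact permutation p = 0.125), Fasn and Scd1 0.39, and Fasn and Thrsp -0.0046. Fasn and Insig2 1417981_at gave -0.64 within the sets (rho = -0.62, exact permutation p = 0.125), and Thrsp and Insig2 0.49. No relation can pass the threshold within the sets, so these are descriptions. Thrsp in both muscles of a mouse gave 0.97 within the sets (exact permutation p = 0.25).

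**Figure D5:**
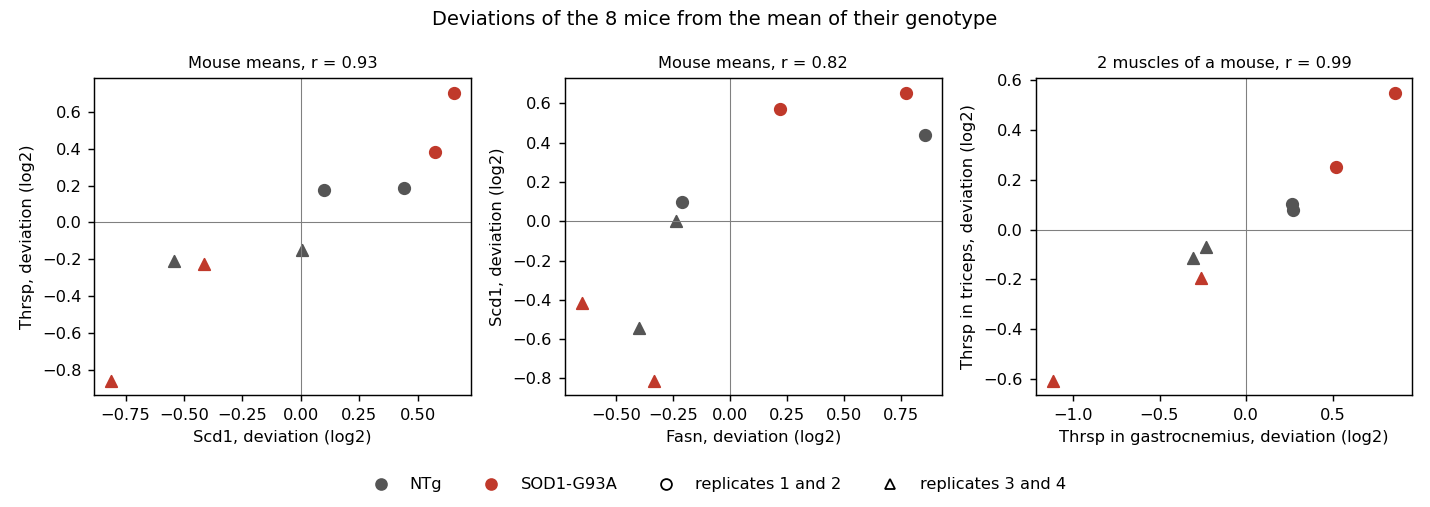
Deviations of the 8 mice from their genotype's mean on the log2 scale, for pairs of genes and for gastrocnemius against triceps, coloured by genotype and marked by replicate numbers. Scd1 and Thrsp deviations lie along a line (r = 0.93), and replicates 3 and 4 fill its lower end.

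Over the 16 arrays, as deviations from the 4 group means, the probe sets of other genes most like each member were ranked by Pearson's r among the 4637 tested. The arrays share mice and replicate sets, so these values are descriptions. Closest to Thrsp was Cebpd, a transcription factor of fat cell formation and stress, with r = 0.94, and 0.93 with the set mean removed. Gadd45g, a stress-response gene, followed at 0.92, the adaptor gene Crk at 0.91, Ddrgk1 at 0.90 and Scd1 itself at 0.86. Within the sets Scd1 was at 0.38 with Thrsp, while Crk was at 0.90.

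The list for Scd1 was Ddrgk1 at 0.89, Nfkbia, the inhibitor of NF-kappaB, at 0.88, the mitochondrial ADP/ATP carrier Slc25a5 at 0.87, Ciao1 at 0.87 and Gadd45g at 0.86. Gadd45g and Ddrgk1 are thus on both lists. Fasn was closest to Hnrnpul1, of an RNA-binding protein, at 0.85, and then to Serbp1 and Ik at 0.82, and to Gtf2h4 and Brix1 at 0.81. Insig2 1417981_at was closest to Selenof and Dvl1 at 0.82, which were at 0.90 and 0.94 within the sets, and then to Mdh1 at 0.78, Atp6v0e2 at 0.77 and Thap12 at 0.76. No gene of the Fasn and Insig2 lists was on another list.

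Of the other fatty acid synthesis genes, Acly had the signs of Fasn at both of its probe sets in the 3 comparisons given next, which were too dim to be tested. Over both muscles SOD1-G93A minus NTg was 0.72 (SE 0.22) and 0.40 (SE 0.33). Gastrocnemius minus triceps was -0.62 (SE 0.21) and -0.97 (SE 0.31), and replicates 3 and 4 minus 1 and 2 was -0.58 (SE 0.16) and -0.84 (SE 0.24). Acacb, the mitochondrial acetyl-CoA carboxylase of muscle, differed by 0.02 (SE 0.13) between genotypes, 0.20 between muscles and 0.03 between sets. Malic enzyme 1, from Me1, which supplies NADPH, differed between genotypes by 0.11 (SE 0.12) and 0.42 (SE 0.20). Scd2, the related desaturase, differed by 0.13 (SE 0.23) and was too dim to be tested.

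Of the 31 genes on the fatty acid synthesis list, 16 were in the table, with 13 probe sets tested. In the comparison of genotypes over both muscles 12 of 13 were above 0, with a median of 0.16 against 0.00 for all tested, and 0 were called. The list holds Fasn, Scd1 and Thrsp, which were chosen on that contrast. Between the replicate sets 3 of 13 were called, all lower, and those were Scd1, Thrsp and Fasn. Between the muscles 0 were called without the mouse block, and without the 3 triceps arrays low in Ckm 1 was, Tecr of fatty acid elongation, higher in gastrocnemius by 0.50 (adjusted p = 0.00236).

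Triglyceride synthesis genes were read as the step after new fatty acids. Gpam, which adds the first acyl chain, differed by -0.02 (SE 0.14) between genotypes, and Dgat2, which adds the last, by 0.26 (SE 0.19) and 0.07 (SE 0.14). Dgat1 was dim and differed by -0.02 (SE 0.24). Of 11 probe sets tested on the glycerolipid list, 0 were called between genotypes, muscles or replicate sets, and the median genotype difference over both muscles was 0.07.

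On the side of control, Srebf1 differed by 0.08 (SE 0.18) between genotypes, by 0.00 between the muscles and by 0.24 between the sets, with no call. Mbtps1, the site-1 protease that cuts SREBP, was dim and differed by -0.23 (SE 0.15) between genotypes. The carbohydrate-sensing factors Mlxip and Mlxipl differed by 0.05 (SE 0.16) and 0.11 (SE 0.14). Txnip, a glucose-responsive target of these factors, differed by 0.37 (SE 0.11) and 0.93 (SE 0.48) at its probe sets. The larger value came from 0.18 in gastrocnemius and 1.68 in triceps, where the lowest NTg array was at 4.41 against a group median of 8.14. Of the 14 probe sets tested for lipogenic transcription and nutrient signals, 0 were called between genotypes or muscles. Prkag1, of the AMP-activated kinase, was called 0.56 higher in replicates 3 and 4 (limma adjusted p = 0.00963). Its other probe set was too dim to be tested and differed by -0.58. Without the triceps arrays low in Ckm, the tested Prkag1 probe set differed by 0.39 and was not called (limma adjusted p = 0.122). The Txnip probe set at 0.93 between genotypes was then called, higher in replicates 3 and 4 by 0.55 (limma adjusted p = 0.0384).

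Sterol synthesis, the other branch under SREBP and INSIG, was read by 4 tested probe sets, of which 0 were called in these comparisons. Hmgcs1, an early enzyme of that branch, differed by -0.15 (SE 0.17) and -0.23 (SE 0.26) between genotypes, and by -0.49 (SE 0.23) at a dim probe set. On the SREBP processing list, 4 probe sets were tested, 3 of them Insig2, and 0 were called. Acaca, Elovl6, Srebf2, Scap, Insig1, Nr1h2, Nr1h3 and Sqle were not analysed here.

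Adipocyte markers were set beside the members because fat cells express Fasn, Scd1 and Thrsp. Of 17 markers 5 were in the table, Adipoq, Fabp4, Plin4, Car3 and the dim Nnat, and Cfd, Plin1 and Cidec were not analysed here. All 6 tested probe sets were above 0 between genotypes over both muscles, with a median of 0.19, and 0 were called. Adipoq differed by 0.43 (SE 0.20), by 0.81 within replicates 1 and 2 and by 0.06 within 3 and 4. Fabp4, the fatty acid binding protein of fat cells and capillaries, differed by 0.09 (SE 0.13) and 0.12 (SE 0.18), and Plin4, of lipid droplets, by 0.00 (SE 0.15).

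The summed linear signal of the marker probe sets other than Car3, which muscle fibres also express, ran from 3925 to 6077 in SOD1-G93A and 3333 to 4752 in NTg gastrocnemius. In triceps it ran from 3478 to 4847 and from 3279 to 4525, so that the genotypes overlapped. With Car3 it ran from 25783 to 33634, 21526 to 31821, 16779 to 26728 and 12128 to 23867 in the same order of groups. Over the deviations of the 16 arrays, Adipoq gave r = 0.82 with Scd1, 0.70 with Thrsp, 0.65 with Fasn and -0.20 with Insig2 1417981_at. The dim Nnat gave 0.73 with Scd1, 0.74 with Thrsp, 0.58 with Fasn and 0.29 with Insig2 1417981_at. The remaining markers did not all follow Adipoq. Fabp4 gave 0.58 and 0.56 with Fasn, 0.49 and 0.43 with Scd1 and 0.39 and 0.18 with Thrsp at its probe sets. Plin4 gave 0.61 with Thrsp, 0.40 with Scd1 and -0.00077 with Fasn. Car3 was negative with all 3 genes, at -0.57 and -0.54 with Fasn, -0.53 and -0.31 with Scd1 and -0.58 and -0.39 with Thrsp. The part of fat cells in the genotype differences of the members was not tested.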

How the data were processed

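Total RNA of each muscle had been extracted with Trizol, purified on RNeasy columns and labelled with biotin from 4 ug, per the labels' protocols, and hybridised to an Affymetrix mouse array. The deposited values are on a log2 scale, 1 per probe set and array. The submitters' processing notes name MAS5, with no version. Any later normalization is not stated, nor is why the table holds 7729 probe sets. The log base is not stated either, and base 2 was read from the range of values, -0.773 to 14.81. On the linear scale the trimmed means of the arrays differed by at most 1.06-fold, so no rescaling was done. Arrays have no read depth, and their number limits the precision.

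The platform annotation has 1 symbol for 7053 probe sets, more than 1 for 330 and no symbol for 346. The Entrez identifiers of 7048 matched RefSeq genes of GRCm38.p6, which changed 0 symbols. limma 3.58.1 in R 4.3.3 fitted 4 group means (eBayes with an intensity trend) to the 4637 probe sets above the filter, with Benjamini-Hochberg adjustment over all of them. The values of dimmer probe sets came from the same fit without the filter. Genotype over both muscles had the mouse as a random block (consensus correlation 0.18), and the comparison of replicate numbers had that number's set as a second factor. The comparison of muscles was fitted without and with the mouse as a fixed block. The pairing rests on the series' statement that 4 mice per genotype gave both muscles. Labels call the replicates biological. Simulated data with known changes were used to check the fits.

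The members, lists and tests were chosen with earlier results of these data known. Beside the 8 probe sets, the text names pathway genes and cell markers from a set list however they moved, and for each member's brightest probe set the 5 genes most like it. Lists of endothelial and macrophage markers had 0 and 3 tested probe sets, with 0 called between genotypes or muscles. Between the replicate sets all 3 macrophage probe sets were above 0 and 1, of Csf1r, was called, higher in replicates 3 and 4 by 0.74 (adjusted p = 0.00583). Alternatives were another filter, quantile normalization, median centring, a floor of log2 5, blocks, each array or mouse left out, and the 3 triceps arrays left out. Figures were drawn with matplotlib 3.10.9.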

Additional observations from a re-analysis of the deposited data

How the results depend on the processing

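The genotype differences were without any call under nearly all alternatives. The exceptions were within replicates 3 and 4, with 1 probe set called in triceps and 2 over both muscles. Between the muscles 171 probe sets were called, and 318 with the replicate block (mouse), 277 with that block after quantile normalization, 436 with the replicate set as a block, 103 without the 3 triceps arrays low in Ckm, 364 within replicates 1 and 2 and 62 within 3 and 4. Leaving out single arrays gave 99 to 272. With all arrays Fasn was not called between the muscles without a block, and without NTg gastrocnemius replicate 2 it was. It was called at -0.94 with the mouse block (adjusted p = 0.00758) or the set block (0.0131), at -0.84 without the 3 arrays and at -0.91 after quantile normalization, both with the mouse block. Single arrays left out gave -1.12 to -0.78. Thrsp 1424737_at was called at -0.60 with the mouse or set block, -0.73 and -0.58. Scd1 was at 0.030 within replicates 1 and 2, Insig2 1417981_at at 0.017 within 3 and 4. Thrsp 1422973_a_at was at 0.0018 after quantile normalization, with or without the mouse block, at 0.0052 with median centring and at up to 0.048 with an array left out (lowest -0.14).

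Between the replicate sets 457 probe sets were called, and 285 after quantile normalization, 212 without the 3 arrays, 173 without them and with the mouse as a random block, and 286 to 565 with an array left out. The Fasn difference lost its call at -0.85 without the 3 arrays and at -0.82 with the random block as well, and single arrays left out gave -0.999 to -0.69. Insig2 1417981_at turned to 0.024 with median centring, to 0.044 without the 3 arrays and to 0.038 with the random block as well, and ran from -0.067 to 0.019 with single arrays left out. Insig2 1417980_a_at turned to 0.10 and 0.11 without the 3 arrays.

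Of the relations, Thrsp with Insig2 turned to -0.66 in gastrocnemius, -0.0045 after quantile normalization and -0.12 as rho. In triceps Fasn with Insig2 was 0.47 and Scd1 with Insig2 0.58. With set means removed, Fasn with Thrsp was -0.0046 and Insig2 between muscles 0.0010. The cause of these changes was not tested.

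The replicate numbers across genotypes share only a number, and the replicate block (number) left the genotype calls at 0. The limits are 4 mice a genotype, 2 replicate sets of unknown meaning and 5 of 17 adipocyte markers in the table. The part of fat content was not tested.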

Other observations

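Some lipid genes too dim to be tested had differences between the replicate sets of the size seen for Scd1, and they are given here as values, chosen after they were seen. In replicates 3 and 4 against 1 and 2, Cyp51, of sterol synthesis, differed by -1.24. Its mean was log2 3.70, below the floor of log2 5 used as an alternative. The other dim sterol genes Ebp, Fdps, Stard4, Idi1 and Sc5d differed by 0.09, 0.21, -0.02, -0.03 and -0.06, and the dim Hmgcs1 probe set by -0.39. Pgd, of the pentose phosphate pathway, differed by -0.85 and -0.57 at its probe sets, and Hsd17b12, of fatty acid elongation, by -0.71 and 0.05. Foxo1, a transcription factor held back by insulin, differed by -0.98 and -0.42. Between genotypes over both muscles Cyp51 differed by 0.29, Pgd by -0.03 and -0.00 and Foxo1 by -0.04 and -0.29.

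Nnat, which was dim and is on the adipocyte list, was 1.25 higher in gastrocnemius than in triceps and differed by -1.08 between the sets. Tecr, which reduces the double bond in fatty acid elongation, was higher in gastrocnemius by 0.33 and 0.70 at its probe sets, with adjusted p-values of 0.16 and 0.0617 in limma without the mouse block.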
